A study of Mus musculus with 5 samples.

Results

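The G protein-coupled receptors through which gut cells sense fatty acids, their derivatives and bile acids were followed as a set of 6 genes, Ffar1, Ffar2, Ffar3, Ffar4, Gpr119 and Gpbar1. They were chosen by name, from knowledge of their ligands, out of 22042 genes in a bulk table and 27998 genes in a droplet matrix. Earlier results of these data were known at that time, so counts of calls among them are descriptive. All 6 were present in both. The bulk table held 12 RNA sequencing libraries of sorted small intestinal epithelial cells from 6 Cck-Cre; R26-LSL-tdTomato mice on a C57Bl/6J background, aged 6 to 8 weeks. Cre expressed from Cck switches on the red reporter tdTomato in these mice, and the sorted cells of each mouse were divided into a tdTomato+ library (CCK+) and a tdTomato- library (CCK-). The 3 mice A, B and F were fasted overnight, and the 3 mice C, D and E had the same fast followed by refeeding with the liquid diet Ensure. This made 4 groups of 3 libraries, and CCK- libraries came from the same mice as the CCK+ libraries. The droplet matrix held 1 library of tdTomato+ small intestinal cells pooled from 4 untreated Neurog3-Cre; R26-LSL-tdTomato mice, also C57Bl/6J and aged 6 weeks. Both reporters mark a lineage and stay on after Cre is lost, so a CCK+ cell need not have been making Cck when it was sorted, and Neurog3-Cre also labeled cells outside the enteroendocrine lineage.

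Enteroendocrine cells (EECs) are scattered hormone-releasing cells of the gut epithelium that read the contents of the lumen and of the tissue below it through receptors of this kind. FFAR1 and FFAR4 bind long-chain fatty acids and FFAR2 and FFAR3 bind short-chain fatty acids such as acetate and propionate, which are made by gut bacteria. GPR119 responds to monoacylglycerols and N-acylethanolamines, and GPBAR1 (TGR5) responds to bile acids. FFAR1 and FFAR4 couple mainly to Gq and raise calcium, FFAR2 couples to Gq and Gi, FFAR3 couples to Gi, and GPR119 and GPBAR1 couple to Gs and raise cAMP.

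Ffar1, Ffar2 and Ffar3 lie side by side on the minus strand of chromosome 7 and yet had different cell patterns in the data below, so their start regions are shown. In the GENCODE annotation of GRCm38, Ffar1 (ENSMUSG00000044453) spans chr7:30857390-30861564 as a single exon, Ffar3 (ENSMUSG00000019429) spans chr7:30854330-30856178, and Ffar2 (ENSMUSG00000051314) spans chr7:30818348-30823775. Ffar3 and Ffar1 are 1211 bases apart, Ffar2 and Ffar3 are 30554 bases apart, and the whole cluster takes 43217 bases. The other members are elsewhere. Ffar4 (ENSMUSG00000054200) is at chr19:38097071-38114263 on the plus strand, Gpr119 (ENSMUSG00000051209) at chrX:48667979-48674478 on the minus strand, and Gpbar1 (ENSMUSG00000064272) at chr1:74278550-74279624 on the plus strand. No member overlapped another annotated gene. The windows run from 250 bases before to 50 bases after each RefSeq start in GRCm38.p6, at chr7:30861421-30861720 for Ffar1, chr7:30823726-30824025 for Ffar2 and chr7:30856129-30856428 for Ffar3, all read from the minus strand. Capitals mark matches, on either strand, to the cAMP response element TGACGTCA or to the NeuroD-type E-box CAGATG.
Ffar1 promoter: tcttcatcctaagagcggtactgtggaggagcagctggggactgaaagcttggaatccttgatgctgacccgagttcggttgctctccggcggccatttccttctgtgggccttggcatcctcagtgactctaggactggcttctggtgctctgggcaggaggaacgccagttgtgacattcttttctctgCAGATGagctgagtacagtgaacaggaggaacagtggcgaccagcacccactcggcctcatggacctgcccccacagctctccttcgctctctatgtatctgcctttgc
Ffar2 promoter: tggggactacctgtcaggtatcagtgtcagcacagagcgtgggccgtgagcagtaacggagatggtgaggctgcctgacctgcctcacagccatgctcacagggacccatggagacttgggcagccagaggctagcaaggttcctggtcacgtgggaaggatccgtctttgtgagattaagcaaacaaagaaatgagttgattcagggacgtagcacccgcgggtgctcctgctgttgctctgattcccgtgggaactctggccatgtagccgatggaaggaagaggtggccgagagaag
Ffar3 promoter: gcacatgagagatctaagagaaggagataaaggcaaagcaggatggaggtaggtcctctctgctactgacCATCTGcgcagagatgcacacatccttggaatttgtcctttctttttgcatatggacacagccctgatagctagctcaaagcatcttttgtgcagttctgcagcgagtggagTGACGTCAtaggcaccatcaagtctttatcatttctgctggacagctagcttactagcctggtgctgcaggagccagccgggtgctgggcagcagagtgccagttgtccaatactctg
The Ffar3 window held 1 cAMP response element, at base 183 counted from the left, and an E-box read as its reverse complement at base 71. The Ffar1 window held 1 E-box at base 192, and the Ffar2 window held neither motif. The RefSeq start of Ffar1 lies inside its GENCODE exon, so this E-box falls within that exon and not before it. The RefSeq starts of Ffar2 and Ffar3 match the GENCODE ends of these genes, so the Ffar1 window is placed differently from theirs. Of 32851 RefSeq promoter windows of this length, 1.79% held the cAMP response element and 17.2% held the E-box, so the E-box is common. The forkhead (TGTTTAC, 3.65% of windows), CDX (TTTATGG, 2.75%), octamer (ATGCAAAT, 1.74%), HNF1 (0.00913%), GC box (GGGCGG, 35.7%) letters and the TATAAA hexamer (13.6%), searched on both strands, had no match in these 3 windows. These matches describe the letters of the windows only.

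The bulk values are normalized counts, that is gene counts divided by a factor per library, and they compare 1 gene across libraries but not 1 gene with another. A library summed to 7061155 to 11371114 normalized counts, where 1 read was worth 0.687 to 1.49, with 16656 to 18855 genes above 0. Cck itself was higher in all 6 CCK+ libraries (14837 to 32592) than in all 6 CCK- libraries (27.6 to 86.0). All 6 pan-EEC marker genes were also higher in CCK+ cells by limma, and the sort also separated other cells. The 9 lymphocyte markers summed to 3979 to 9297 in CCK+ and 459 to 1037 in CCK- libraries, with 8 of 9 called higher in CCK+, and the 5 neuron and glia markers in the table summed to 285 to 689 against 13.6 to 39.2. The CCK+ library of fasted mouse B had the lowest pan-EEC sum among the CCK+ libraries (63306) and the highest lymphocyte sum (9297). In bulk, fewer cells of a type and less RNA per cell cannot be told apart.

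All 6 receptors were higher in CCK+ than in CCK- cells (limma on log2(normalized count + 1), Benjamini-Hochberg over 22042 genes, threshold 0.05). The background for such a call was 19.6% of all genes, and the receptors' median log2 change was 4.41 against 0.09 over all genes. For 5 of 6, every CCK+ library was above every CCK- library, which held for 9.74% of all genes. Ffar4 was the exception.

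Among the long-chain fatty acid receptors, Ffar1 stood at 542, 216 and 448 normalized counts in CCK+ cells of fasted mice A, B and F, and at 496, 372 and 306 in refed mice C, D and E. The same mice gave 6.65, 17.0 and 11.2, then 9.99, 12.04 and 4.47, in CCK- cells. The lowest CCK+ library, from fasted mouse B, thus stayed above the highest CCK- library, which came from the same mouse. Ffar1 was higher in CCK+ by 5.18 on the log2 scale (SE 0.305, 95% interval 4.53 to 5.83, limma adjusted p = 1.71e-08). Its level in CCK+ cells was 402 ± 168 (SD, n = 3) in fasted and 391 ± 96.7 (SD, n = 3) in refed mice.

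Ffar4 was uneven between libraries. CCK+ libraries held 19.0, 2.43 and 40.2 normalized counts in fasted and 21.3, 15.1 and 19.0 in refed mice, which correspond to 27, 2, 42, 25, 22 and 21 reads. CCK- libraries held 0, 1.21 and 1.12 in fasted and 8.88, 1.85 and 5.96 in refed mice. The library of fasted mouse B, with 2 reads, lay inside the CCK- range. Ffar4 was higher in CCK+ by 2.41 on the log2 scale (SE 0.582, interval 1.16 to 3.65, limma adjusted p = 0.00484), and this call was lost when either feeding state was fitted alone (adjusted p = 0.146 in fasted and 0.0760 in refed libraries). In the fit of all libraries the difference was 3.08 within fasted mice (interval 1.32 to 4.84, adjusted p = 0.0172) and 1.73 within refed mice (interval -0.03 to 3.50, adjusted p = 0.146).

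Of the short-chain fatty acid receptors, Ffar2 reached 172, 58.0 and 94.4 normalized counts in CCK+ cells of fasted mice and 227, 404 and 353 in those of refed mice. In CCK- cells it was 0.91, 0.81 and 2.99 in fasted and 2.23, 17.2 and 1.99 in refed mice, with refed mouse D far above the others. The difference was 5.60 on the log2 scale (SE 0.463, interval 4.61 to 6.59, limma adjusted p = 4.70e-07). Ffar3 held 36.4, 71.9 and 41.7 in CCK+ cells of fasted and 61.1, 50.5 and 42.8 in those of refed mice. Its CCK- values were 5.11, 3.36 and 3.09 in fasted and 10.3, 2.56 and 0 in refed mice. It was higher in CCK+ by 3.64 (SE 0.50, interval 2.57 to 4.71, adjusted p = 5.56e-05), and its CCK+ libraries stayed within 36.4 to 71.9. The 5 tuft cell markers, which mark the cells richest in Ffar3 in the droplet library, were not called between CCK+ and CCK- cells (0 of 5), and summed to 226 to 876 in CCK+ and 374 to 1045 in CCK- libraries. The lymphocyte and neuron markers that moved with the sort moved in the same direction as Ffar3, and their part in its level was not tested.

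The monoacylglycerol receptor Gpr119 was close to absent outside the CCK+ fraction. CCK+ libraries held 73.9, 46.1 and 58.4 normalized counts in fasted and 49.4, 58.4 and 40.8 in refed mice, with at least 38 reads in each. Of 6 CCK- libraries, 5 were at 0 and that of fasted mouse A held 1 read. Over all libraries this was 392 reads against 1, a ratio of 294 on the scale of the deposited normalization, with a 95% counting interval of 52.5 to 11655. In refed mice, where no CCK- library held a read, Gpr119 in CCK+ cells stood 44.5-fold above a floor of 3 reads over the group. That value leaves out the counting error of its 188 CCK+ reads. The limma log2 change was 5.59 (SE 0.374, adjusted p = 6.17e-08), a value set in part by the pseudocount.

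The bile acid receptor Gpbar1 rested on few reads. CCK+ libraries held 10, 2 and 10 reads in fasted and 2, 9 and 6 in refed mice, equal to 1.70 to 9.57 normalized counts. CCK- libraries of mice B and F, both fasted, held 1 read each and the other 4 held none. On the same normalized scale the ratio was 14.6 over all libraries (39 reads against 2, counting interval 3.79 to 125). In refed mice Gpbar1 in CCK+ cells stood 4.03-fold above a floor of 3 CCK- reads. That value leaves out the counting error of its 17 CCK+ reads. The limma log2 change was 2.15 (SE 0.420, interval 1.25 to 3.05, adjusted p = 0.00101). With fasted libraries alone the adjusted p was 0.107. With Gpr119 and Gpbar1 at the log2 ratio of their reads, the median over the receptors was 4.53.

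**Figure D1:**
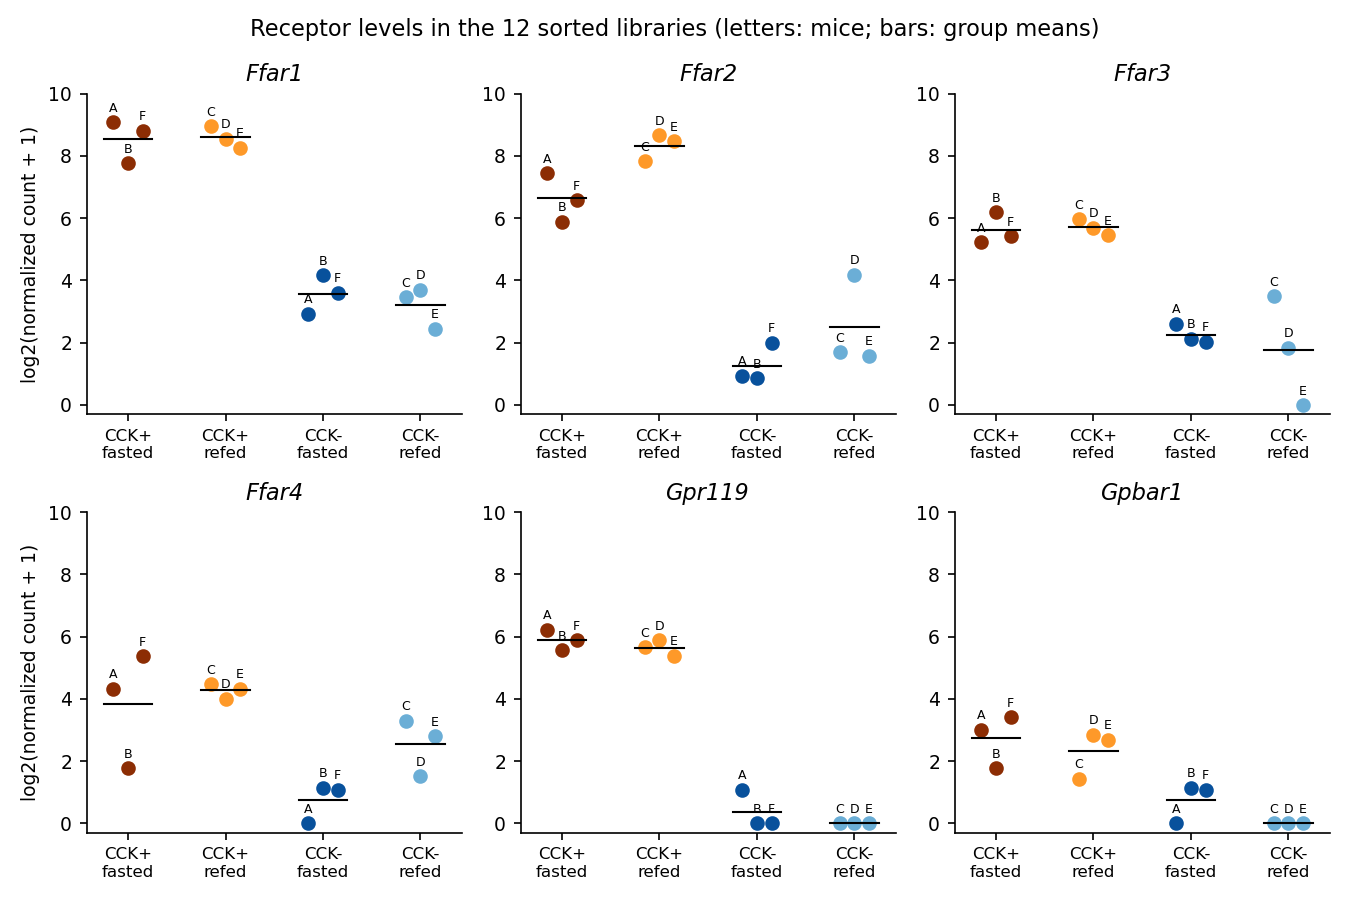
Level of each receptor as log2(normalized count + 1) in the 12 sorted libraries. Each panel is 1 gene, each point is 1 library marked with the letter of its mouse, and bars are means of the 3 libraries of a group. CCK+ points lie above CCK- points in every panel except that of Ffar4, where the library of fasted mouse B, at 2.43 normalized counts, falls among the CCK- points.

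Refeeding gave no call for any receptor. In simulated counts, the same fit over all genes recovered 0 of 86 2-fold and 35 of 114 4-fold refeeding changes in CCK+ cells. A missing call thus says little about changes of that size. In CCK+ cells 0 of 6 passed the threshold in either direction, beside 1.31% of all genes called higher and 1.23% called lower in refed mice. At an unadjusted limma p under 0.05 stood Ffar2, 1 of 6, a share close to that of all genes (16.95%). In CCK- cells 0 of 6 were called, beside 0.708% of genes called higher and 0.526% called lower, and Ffar4, 1 of 6, had an unadjusted limma p under 0.05, as had 11.95% of all genes. No difference of the refeeding change between CCK+ and CCK- cells was called for any of the 6, and 0 of 6 had an unadjusted p under 0.05 (6.25% of all genes), in a contrast in which 0.00454% of genes (1 gene) were called.

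Ffar2 showed the widest refeeding difference among the receptors in CCK+ cells. Its mean there was 108 ± 58.1 (SD, n = 3) in fasted and 328 ± 91.1 (SD, n = 3) in refed mice, a ratio of 3.03, and the 3 refed libraries were all above the 3 fasted ones, a separation that 10.8% of all genes showed in this direction. On the log2 scale the difference was 1.69 (SE 0.655, interval 0.29 to 3.09), with an unadjusted limma p of 0.0217 and an adjusted p of 0.205, so it did not pass the test. Over 20 alternative settings the log2 difference ran from 1.32 to 2.09 and the adjusted p from 0.0653 to 0.458. An exact permutation test of 3 against 3 mice could not give a two-sided p under 0.1.

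The sum of the EEC markers was higher in the refed than in the fasted CCK+ libraries, without a call for any of them. The 6 pan-EEC markers summed to 63306 to 143151 in fasted and 170864 to 233516 in refed CCK+ libraries, with 0 of 6 called and a median log2 change of 0.78. Chgb alone gave 54338 to 123321 in fasted and 152468 to 211125 in refed mice, so the sum mostly follows 1 gene. The Cck ranges overlapped, at 15183 to 25001 in fasted and 14837 to 32592 in refed mice. Tph1, the enzyme of serotonin synthesis in enterochromaffin cells, was 15465, 4994 and 9773 in fasted and 11695, 19744 and 21358 in refed mice (log2 change 0.90, adjusted p = 0.248). Per 1000 normalized counts of Tph1, Ffar2 was 11.1, 11.6 and 9.66 in fasted and 19.4, 20.5 and 16.5 in refed mice, a ratio of group means of 1.74. Per 1000 normalized counts of the granin gene Chgb it was 1.39, 1.07 and 1.06 in fasted and 1.49, 1.91 and 1.88 in refed mice, a ratio of 1.5. On both scales the ratio was smaller than for Ffar2 itself, and per Chgb fasted mouse A and refed mouse C lay close together. Both scales were added after seeing the data. How many genes separate the groups on them was not counted, so the separation of Ffar2 there has no background. The part of EEC content in the Ffar2 difference was not tested beyond this.

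**Figure D2:**
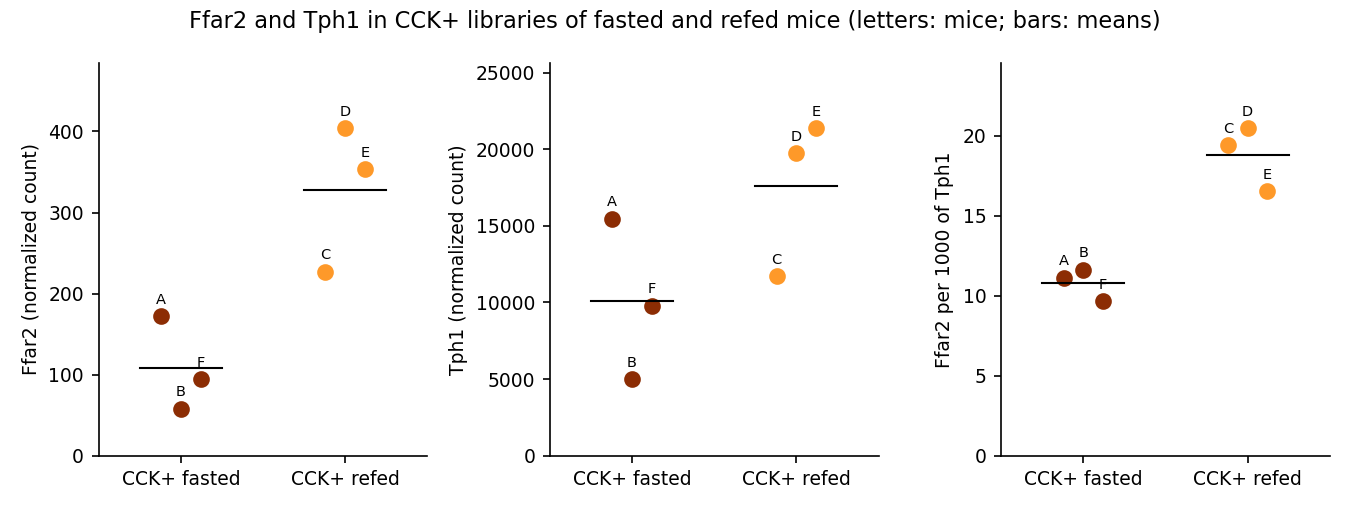
Ffar2 (left, normalized count), Tph1 (middle, normalized count) and Ffar2 per 1000 normalized counts of Tph1 (right) in the CCK+ libraries of fasted and refed mice. Points are libraries with the letter of their mouse and bars are means of 3. Refed points lie above fasted points in the left and right panels, at 227 to 404 against 58.0 to 172 and at 16.5 to 20.5 against 9.66 to 11.6, while the Tph1 ranges overlap.

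The other receptors differed less between feeding states than between mice of a group in CCK+ cells. The log2 difference, refed minus fasted, was 0.04 (interval -0.89 to 0.96) for Ffar1 and 0.09 for Ffar3. It was 0.45 for Ffar4, whose fasted libraries alone ran from 2.43 to 40.2. Gpr119 and Gpbar1 stood at -0.25 and -0.41. In CCK- cells Ffar2 differed by 1.22 (interval -0.18 to 2.63), with a limma adjusted p of 0.505. Without refed mouse D the difference was 0.37. Ffar4 in CCK- cells differed by 1.80 (interval 0.03 to 3.56, limma adjusted p = 0.407). That difference rested on 8, 2 and 4 reads in refed and 0, 1 and 1 in fasted mice. The difference of the refeeding changes between the fractions was 0.47 for Ffar2 (interval -1.52 to 2.45) and -1.35 for Ffar4 (interval -3.84 to 1.15), intervals wide enough to hold changes of several fold.

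**Figure D3:**
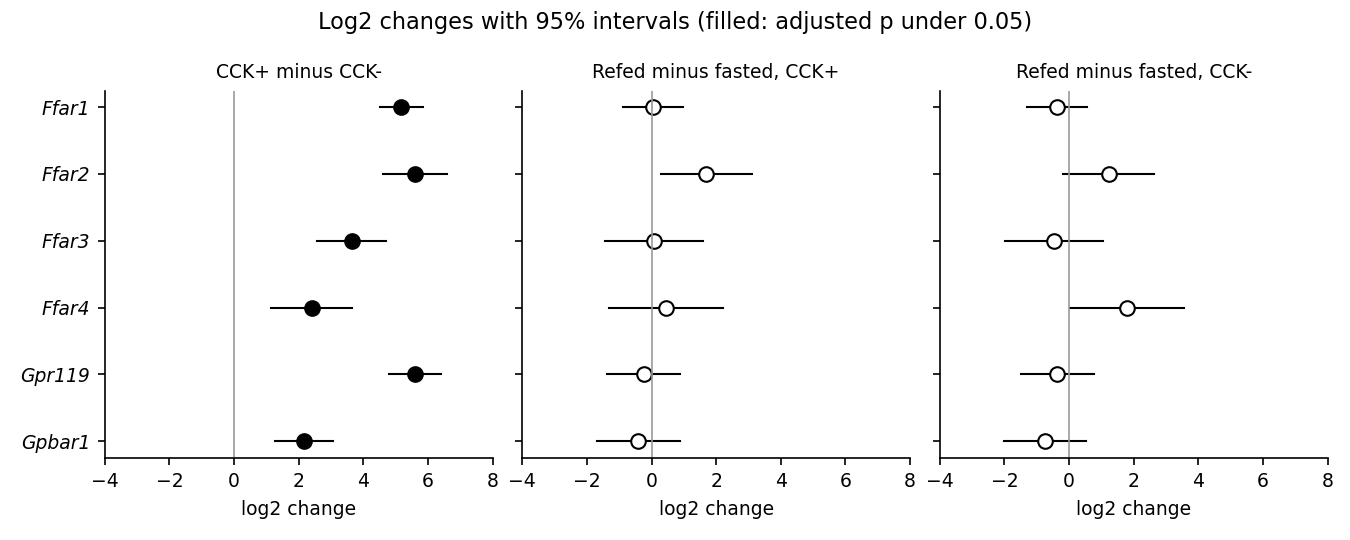
Log2 changes of the 6 receptors with 95% limma intervals, for CCK+ minus CCK- (left), refed minus fasted in CCK+ cells (middle) and refed minus fasted in CCK- cells (right). Filled points have an adjusted p under 0.05. All 6 points are filled on the left, between 2.15 and 5.60, and none is filled in the other panels.

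The cells that carried each receptor were then read from the droplet library. Of 475960 barcodes with a unique molecular identifier (UMI), 9451 had more than 1000 genes and under 10% mitochondrial UMIs. Cells were placed by UMIs per 10000 into Cck-high cells (Cck of at least 500, 1246 cells), Tph1 cells (at least 10, 2492 cells), Gip-high (135), Ghrl-high (151) and Sst-high cells (35), goblet cells (Zg16 of at least 500, 3920 cells) and the rest (1472). These names give the gene that chose the cells, in that order, and 1127 cells met more than 1 rule. Median depth was 3226 UMIs in Tph1 cells, 6296 in Cck-high cells, 6812 in goblet cells and 10136 in the rest. A single library allows no test between groups, so levels carry 95% Poisson intervals and shares carry 95% exact binomial intervals, both for counting error only. Free RNA, the sum of barcodes with 1 to 100 UMIs, is given beside the levels. It does not measure the background within a cell. Cck stood at 111 UMIs per 10000 in free RNA, against 15.5 in goblet and 20.6 in Tph1 cells. A level near or below that of free RNA can thus still come from the cells.

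Ffar1 was a gene of Cck-high cells. It reached 1.28 UMIs per 10000 there (1050 UMIs, interval 1.20 to 1.36), and 51.7% of these cells held a UMI (interval 48.9 to 54.5), or 23.4% after every cell was thinned to 2000 UMIs. Gip-high cells came next, at 0.444 (interval 0.320 to 0.601). Ghrl-high cells (0.142) and Sst-high cells (0.105, 2 UMIs) had intervals that overlapped free RNA (0.110, interval 0.0687 to 0.166). The rest (0.0273), Tph1 cells (0.0261) and goblet cells (0.0212) did not differ beyond their intervals and were below free RNA. Goblet cells held an Ffar1 UMI in 1.28% of cells, at a slightly greater depth than the Cck-high cells.

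Ffar2 had another order, led by Tph1 cells. They held 2.68 UMIs per 10000 (2568 UMIs, interval 2.57 to 2.78), with a UMI in 57.5% of cells, or 41.9% after thinning. Cck-high cells held 1.32 (interval 1.25 to 1.41; 20.5% after thinning), and Sst-high (1.15) and Ghrl-high cells (1.06) did not differ from them beyond their intervals. Goblet cells stood at 0.549 (interval 0.522 to 0.577), an interval that overlapped that of free RNA (0.433, 0.347 to 0.535), and Gip-high cells (0.222) and the rest (0.187) were lower. Tph1 cells thus carried little Ffar1 and much Ffar2, while Gip-high cells held Ffar1 above and Ffar2 below the level of free RNA.

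Ffar3 was sparse, at 0.221 UMIs per 10000 in Cck-high cells (182 UMIs, interval 0.190 to 0.256) and in 13.2% of these cells, or 3.85% after thinning. The rest followed at 0.121 (interval 0.106 to 0.138), and Gip-high cells at 0.0952. Tph1 cells (0.0407), goblet cells (0.0291) and Ghrl-high cells (0.0178) were below or near the lower bound of free RNA (0.110, interval 0.0687 to 0.166), and Sst-high cells held 0 UMIs, which allows a level of up to 0.157 when 3 UMIs are taken as the limit of a count of 0, as for every count of 0 here. Ffar4 was different again, being spread over every group. Its highest level was 1.52 in goblet cells (4221 UMIs, interval 1.47 to 1.56), against 1.42 in Ghrl-high, 1.21 in both Gip-high and Sst-high, 1.11 in Cck-high, 0.978 in Tph1 cells and 0.954 in the rest. Free RNA held 1.05 (interval 0.914 to 1.20), and the intervals of goblet cells and, by a narrow margin, Ghrl-high cells alone lay above it. Per 1000 UMIs of the goblet gene Zg16, Ffar4 had 0.645 UMIs in goblet cells, 1.24 in free RNA, 2.22 in Tph1 cells, 4.31 in Cck-high cells and 8.11 in the rest. At the ratio of Ffar4 to Zg16 in free RNA, the Zg16 of Cck-high cells would go with 0.318 Ffar4 UMIs per 10000. For Tph1 cells this value was 0.544 and for the rest 0.145. Whether the background within cells has this ratio was not tested. The bulk libraries compared other cells, with Ffar4 higher in CCK+ than in CCK- libraries. Goblet markers summed there to 18983 to 36770 in CCK+ and 23097 to 48219 in CCK- libraries. Enterocyte markers summed to 252298 to 376356 in the CCK- libraries. In the droplet library, cells of the rest with the enterocyte gene Fabp1 held Ffar4 at 0.824 (interval 0.728 to 0.928), below Cck-high cells (interval 1.04 to 1.19). The bulk and droplet comparisons thus rest on unlike cells, and how they relate was not tested.

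Gpr119 was sparse and found mostly in 2 groups. Gip-high cells held 0.180 UMIs per 10000 (17 UMIs, interval 0.105 to 0.288) and Cck-high cells 0.118 (97 UMIs, interval 0.0956 to 0.144), intervals that overlap. Goblet cells held 4 UMIs (0.0014), Tph1 cells 7 (0.0073) and the rest 11 (0.0060), levels near that of free RNA (0.0050, from 1 UMI). Gpbar1 had 7 UMIs in Cck-high cells, 5 in Tph1 cells and 1 in the rest. It had 0 UMIs in 3920 goblet cells, which allows a level of up to 0.0011 per 10000 and UMIs in at most 0.0765% of cells. The Cck-high level of Gpbar1 was 0.0085 (interval 0.0034 to 0.0175), above the goblet interval but not above free RNA (0.0050, from 1 UMI), and Gip-high, Ghrl-high and Sst-high cells held none, in fewer cells.

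**Figure D4:**
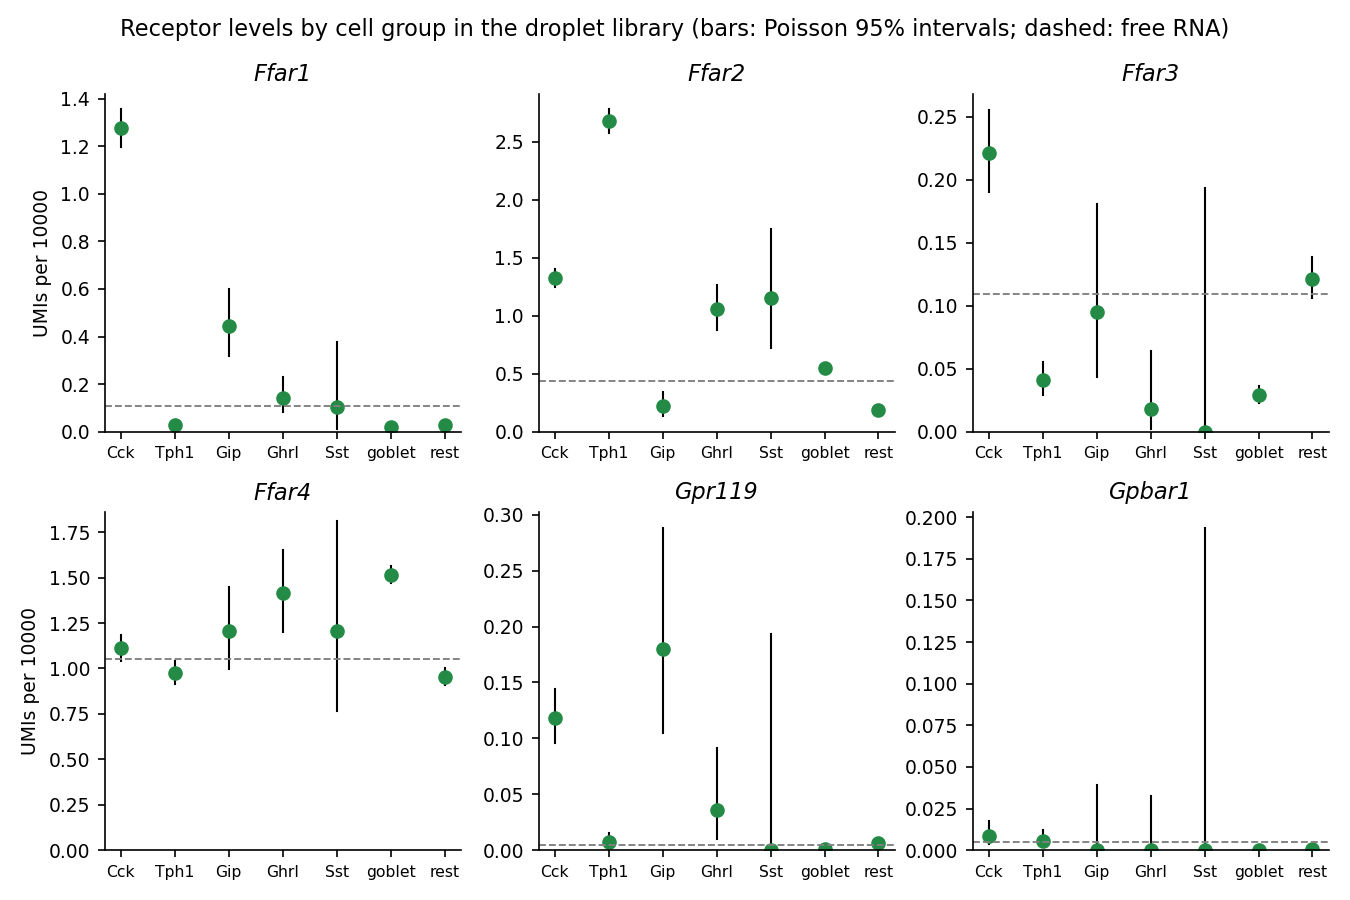
UMIs per 10000 of each receptor in the 7 cell groups of the droplet library. Points are levels, bars are 95% Poisson intervals and the dashed line is the level in free RNA. Ffar1, Ffar3 and Gpr119 stand above the line in Cck-high cells, Ffar2 peaks in Tph1 cells at 2.68, and Ffar4 stays between 0.954 and 1.52 in all groups.

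Cck-high cells were not uniform. Among those with Gcg or Pyy (at least 10 UMIs per 10000, 527 cells), which encode the proglucagon and peptide YY hormones, Ffar1 was 1.81 per 10000 (interval 1.66 to 1.96), against 0.960 (interval 0.861 to 1.07) in the 517 cells with neither these genes nor Tph1. Gpr119 was 0.247 (interval 0.197 to 0.307) against 0.0391 (interval 0.0214 to 0.0655), and 82 of its 97 UMIs in Cck-high cells fell in cells with Gcg or Pyy, as did 6 of the 7 Gpbar1 UMIs. Ffar2 did not follow this split, at 1.24 and 1.25. It was highest in the 202 Cck-high cells with Tph1, at 1.73 (interval 1.51 to 1.97), where Ffar1 was 0.805 and Gpr119 had 1 UMI. Median depth was close in the 3 sets, at 6085, 6458 and 6362 UMIs.

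The same held when Cck-high cells were ordered by Gcg alone, a split made after the first results. Ffar1 was 0.874, 1.14, 1.77 and 2.19 UMIs per 10000 in cells with Gcg at 0, above 0 to 10, 10 to 100 and 100 to 500 UMIs per 10000 (417, 394, 367 and 60 cells). Gpr119 was 0.0184, 0.0787, 0.231 and 0.445 in the same bins. The 8 cells with Gcg of at least 500 held 5 Ffar1 UMIs (1.18, interval 0.383 to 2.75) and 1 Gpr119 UMI. Ffar2 went from 1.46 to 1.22, 1.29 and 1.39, with no such order. In single Cck-high cells, Gpr119 was found in 10.9% of the 644 cells with an Ffar1 UMI (interval 8.57 to 13.5) and in 2.49% of the 602 without (interval 1.40 to 4.08), and thinned to 2000 UMIs in 5.84% and 1.26%. Ffar2 was found in 50.2% and 50.5% of the same cells. Of all Cck-high cells, counted without thinning, 11.5% held no UMI of any of the 6 receptors, 31.5% held 1 receptor, 34.2% held 2, 19.3% held 3, 3.29% held 4 and 0.161% held 5.

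Within Tph1 cells, Ffar2 was higher where Tph1 was higher. It was 1.95 UMIs per 10000 (interval 1.81 to 2.08) in 896 cells with Tph1 of 10 to 30, 3.20 (interval 3.05 to 3.36) in 1526 cells of 30 to 100, and 4.07 (interval 3.29 to 4.98) in 70 cells above that. The median depths of these bins were 3612, 3099 and 3083 UMIs. Splitting the cells by Tac1, the substance P precursor gene (2.72), or by high Sct, the secretin gene (2.81), gave levels that did not differ from that of cells with neither (2.64). In the shallower 1686 Tph1 barcodes, below the limit of the Cell Ranger 2 rule for calling a cell, Ffar2 was 3.17 (interval 3.01 to 3.33), against 2.18 (interval 2.05 to 2.32) in the 806 called ones, so both were above every other group, and depth moved with the level.

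The Ffar3 of the rest came from few cells. In the 177 cells with tuft markers (at least 10 UMIs per 10000 over 5 genes), Ffar3 was 1.97 UMIs per 10000 (interval 1.70 to 2.27), and 61.0% of cells held a UMI, or 35.0% after thinning. They carried 190 of the 222 Ffar3 UMIs in the rest. Tuft cells are chemosensory cells of the epithelium. In the other cells of the rest, with Paneth, Fabp1, cycling, EEC or none of these markers, Ffar3 was 0.0093 to 0.0611, and 140 cells with tuft markers placed in other groups held 0.964 (interval 0.770 to 1.19). The tuft marker cells of the rest held 0 UMIs of Ffar1, Gpr119 and Gpbar1, which allows a level of up to 0.0310 for each. Those placed in other groups held 12 Ffar1 UMIs (0.136, interval 0.0703 to 0.238), a level near that of free RNA (0.110). With a mitochondrial limit of 5% the level of Ffar3 in the rest was 0.0447 in place of 0.121.

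**Figure D5:**
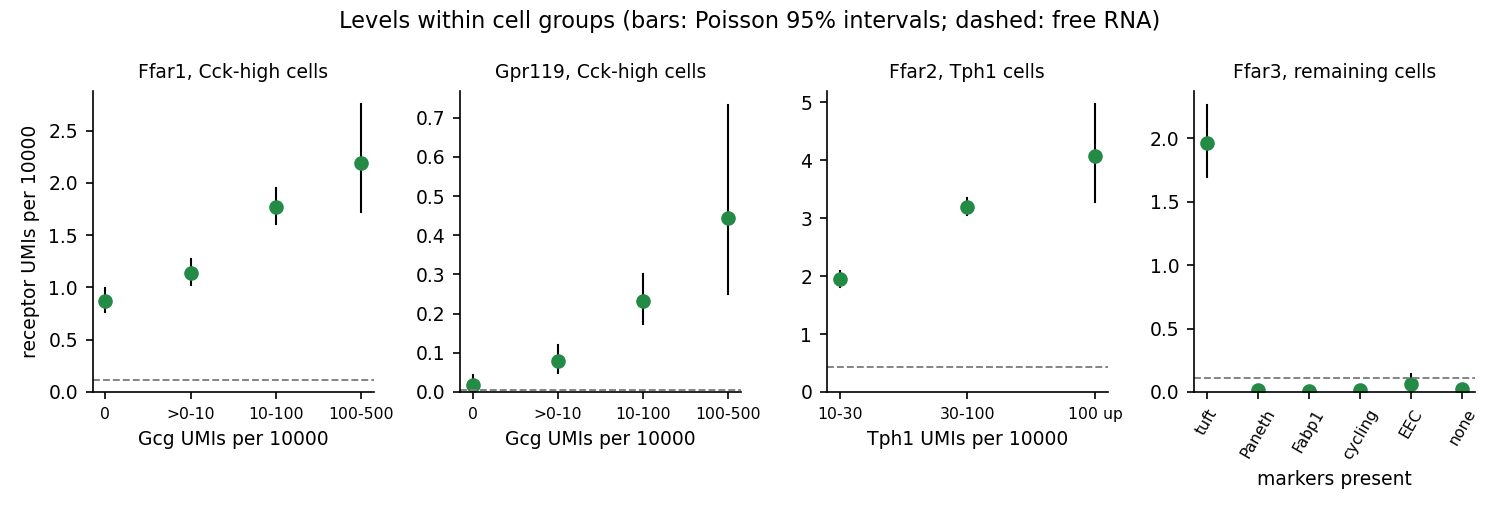
Receptor levels within cell groups of the droplet library, in UMIs per 10000, with 95% Poisson intervals and the free RNA level dashed. From left to right, Ffar1 and Gpr119 in Cck-high cells by their Gcg level, Ffar2 in Tph1 cells by their Tph1 level, and Ffar3 in the rest by marker. Ffar1 goes from 0.874 to 2.19 and Gpr119 from 0.0184 to 0.445 over the Gcg bins, and Ffar3 is above free RNA in tuft marker cells alone.

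The signaling genes downstream of these receptors were counted in the bulk libraries, where 19.6% of all genes were called higher and 14.1% lower in CCK+ cells. Of 23 genes of Gs and cAMP signaling, 10 were called higher in CCK+ cells and 1 lower, with a median log2 change of 0.86 against 0.09 over all genes, led by the adenylyl cyclases Adcy1 (6.06) and Adcy2 (5.57). Of 14 Gi and arrestin genes, 10 were higher and 1 lower (median 2.55), among them Gnai1, a Gi alpha subunit (5.81), and Rgs4, a regulator of G protein signaling (5.33). Of 18 Gq and calcium genes, 7 were higher and 4 lower (median 0.28), with Plcb4, a phospholipase C, at 4.56 and Itpr1, an IP3 receptor, at 2.24. Refeeding called 1 gene of the 3 lists in CCK+ cells, the IP3 receptor Itpr2, which fell by 0.95 (limma adjusted p = 0.0356), no larger a share than among all genes. Mgll and Dagla, enzymes that break down and make 2-arachidonoylglycerol, were 2 of 10 genes of monoacylglycerol and N-acylethanolamine metabolism called higher in CCK+ cells (4.99 and 4.05), a share close to that of all genes, and 6 were lower. Other lipid and short-chain acid receptors were 10 higher and 2 lower of 23, with the cannabinoid receptor Cnr1 at 7.26 and the lactate receptor Hcar1 at 5.71.

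The genes whose levels followed each receptor most closely were ranked over 12 libraries and 13031 genes by Pearson's r of log2 values. All points share the sort, so r is high for any gene of the CCK+ fraction and no p is given. The nearest genes were Bcam (0.991) for Ffar1, Tceal9 (0.988) for Ffar2, Trbc2 (0.981), a T cell receptor constant gene, for Ffar3, Urb1 (0.926) for Ffar4, Sphkap (0.994) for Gpr119 and Zbtb4 (0.960) for Gpbar1. The next ones were Cplx2 (0.991) and F5 (0.990) for Ffar1, Scg3 (0.988), a granin family gene, and Shisa2 (0.987) for Ffar2, Tgfb3 (0.980) and Qpctl (0.978) for Ffar3, Sinhcaf (0.925) and Sfrp5 (0.921) for Ffar4, Man2a2 (0.994) and the secretin gene Sct (0.993) for Gpr119, and Gadd45b (0.951) and Dhx32 (0.95) for Gpbar1.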

How the data were processed

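The bulk signal values are normalized counts deposited by the authors, who trimmed reads (Trim Galore 0.6.7), quantified them with Salmon 1.6.0 on the cDNA transcriptome of GRCm39, took gene totals, removed genes with at most 1 count over all samples and divided by DESeq2 normalization factors. The droplet values are counts of UMIs per gene and barcode, deposited by the authors without normalization after Cell Ranger 2.0.1 on the mm10 transcriptome, with all barcodes kept. Record titles name CCK+ cells for all 4 bulk groups, but 2 of them are CCK- by cell type label and in the table, whose labels were followed. Cck levels were checked against these.

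Of the bulk values above 0, 27.5 to 31.1% were whole multiples of the value of 1 read, so no count test was run. Ffar1, Ffar4, Gpr119 and Gpbar1 were at whole multiples in all 12 libraries, which gave their reads. log2(value + 1) was fitted over 22042 genes with limma 3.58.1 in R 4.3.3 (trended prior, 4 group means, 8 residual degrees of freedom), with Benjamini-Hochberg adjustment and a threshold of 0.05. The libraries are separate mice. CCK+ and CCK- libraries of 1 mouse were paired by design, and their deviations from the group means correlated over genes at 0.0773 to 0.124 within a mouse and at most -0.0184 between mice. A mouse block was an alternative. Droplet groups, shares and intervals were computed with Python 3.11.15, numpy 2.4.6 and scipy 1.17.1, and cells were thinned with seed 1. Doublets were not called, and cells meeting a single rule were an alternative. The limits leave 9451 cells, more than the study counted under the same limits.

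The members and all gene lists were chosen with earlier results of these data known. Further genes were named by rule, up to 2 called genes per direction and list with the largest change and a mean of at least 10. The splits of Tph1 cells, of the rest and of Cck-high cells by Gcg, and Ffar2 per 1000 Tph1 or Chgb, were added after seeing the data. Scripts were tested on simulated data. The simulated bulk counts had the same spread for every gene and no difference between CCK+ and CCK- cells, unlike the data. For refeeding in CCK+ cells, the fit over all 22042 genes recovered 0 of 86 2-fold and 35 of 114 4-fold changes, with 9 false calls. Over genes with a mean of at least 10 it recovered 12 of 85 and 94 of 114, with 7 false calls. Promoter windows are from RefSeq (GRCm38.p6, 6 of 6 matched) and gene positions from GENCODE on GRCm38.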

Additional observations from a re-analysis of the deposited data

How the results depend on the processing

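All 6 receptors were called higher in CCK+ cells, and none was called for refeeding, whichever 1 of the 12 libraries was left out (6 called in each case for the sort and 0 for refeeding). The filter on a mean of 10 left out Gpbar1. Against CCK- cells, Ffar4 lost its call with fasted or refed libraries alone (adjusted p = 0.146 and 0.0760, limma) and Gpbar1 with fasted libraries alone (0.107), where 3 libraries a group leave less information. No direction changed in that comparison. For refeeding, directions of uncalled changes turned. In CCK+ cells, leaving out a library moved the log2 change of Ffar1 between -0.36 and 0.30, Ffar3 between -0.10 and 0.38, Ffar4 between -0.57 and 1.22 (the lowest without fasted mouse B) and Gpbar1 between -0.88 and 0.0373, and quantile normalization gave -0.0063 for Ffar1 and -0.0329 for Ffar3. In CCK- cells it moved Ffar1 between -0.68 and 0.0113 and Ffar3 between -1.34 and 0.41. For the difference between fractions it moved Ffar3 between -0.32 and 1.43, Gpr119 between -0.25 and 0.29 and Gpbar1 between -0.14 and 0.78, and a pseudocount of 10 gave -0.16 for Gpr119 and -0.0615 for Gpbar1. The cause of these turns was not tested. Ffar2 in CCK+ cells stayed between 1.32 and 2.09. It had an adjusted p of 0.458 without fasted mouse B, of 0.202 with the mouse as a replicate block and of 0.0653 with a pseudocount of 10. The replicate block changed no receptor's call. Ffar2 per 1000 Tph1 and per 1000 Chgb was 1.74 and 1.5 times higher in refed mice, against 3.03 for Ffar2 itself. Scaling the libraries to 1 sum moved the median log2 change of expressed genes from 0.01 to 0.40 in CCK+ against CCK- and split the calls into 6511 higher and 1232 lower, against 4324 and 3107 as deposited and 3225 and 4522 after quantile normalization (median -0.17). In refed CCK+ cells the splits were 631 and 184, 289 and 272, and 430 and 420. Of 294 droplet levels under alternative limits, 36 left the interval of the reported level. Shares of cells with a UMI depended more on the counting. With 2 UMIs required or cells thinned to 2000 UMIs, 66 of 84 shares left their interval. Few reads limit Ffar4, Gpr119 and Gpbar1 in CCK- cells, and 1 droplet library leaves the spread between animals unknown.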

Other observations

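Genes listed for bile acid handling and fatty acid uptake went the other way from the receptors in the sort. Of 13 genes of bile acid handling, 9 were called lower in CCK+ than in CCK- cells and 0 higher (limma, median log2 change -0.64 against 0.09 over all genes), among them Slc51b, a subunit of the basolateral bile acid exporter (-1.37), and Slc10a2, the apical bile acid transporter (-1.35). Of 16 fatty acid uptake genes, 13 were lower and 0 higher, with the fatty acid binding protein Fabp2 at -1.67. Of all genes, 14.1% were called lower and 19.6% higher in CCK+ cells. Enterocyte markers moved with these lists, 4 of 6 being lower in CCK+ cells, with sums of 102049 to 266058 in CCK+ and 252298 to 376356 in CCK- libraries, and their part was not tested.

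Some genes of these lists were called between refed and fasted mice. In CCK+ cells, Plin2, which coats lipid droplets, was higher in refed mice by 1.70 (adjusted p = 0.00294), Abcg8, a sterol exporter, fell by 1.72 (adjusted p = 0.00265), and Cd36, a fatty acid transporter, fell by 1.16 (adjusted p = 0.0349). Of 13 bile acid handling genes 7 were called lower in refed CCK+ cells and 3 in refed CCK- cells, beside 1.23% and 0.526% of all genes. Enterocyte markers summed to 156642 to 266058 in fasted and 102049 to 171239 in refed CCK+ libraries, with 0 of 6 called by limma, and their part in these changes was not tested. In CCK- cells Plin2 was higher by 1.53 and Abcg8 fell by 1.27. The lipid receptor Gpr55 was higher in refed CCK+ cells by 1.08 (adjusted p = 0.0228), and in the droplet library its levels in goblet cells (0.232 UMIs per 10000), Tph1 cells (0.185) and free RNA (0.199) lay close together.

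Other lipid and metabolite receptors had their own leading groups in the droplet library. Cnr1 stood at 1.41 UMIs per 10000 in Gip-high cells (interval 1.18 to 1.67), against 0.0729 in Cck-high cells and 0.0548 in free RNA. The succinate receptor Sucnr1 stood at 0.621 (interval 0.474 to 0.799) in the tuft marker cells of the rest, where all 60 of its UMIs in the rest were found, against 0.010 in free RNA.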
